A study of Homo sapiens with 8 samples.

Results

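The genes of tight junctions, desmosomes and gap junctions were followed in the human breast cancer line MDA-MB-231, which was grown from a metastasis. Members were chosen by gene symbol, as the claudins, occludin and its MARVEL relatives, the junctional adhesion molecules, the ZO proteins, cingulin, the desmosomal cadherins, desmoplakin, plakoglobin, the plakophilins and the connexins of the A, B and C classes. The rule found 52 genes of the 19775 that a probe set names alone, and each gene was read from its probe set of highest mean signal. The rule uses the symbol alone and no measured value. GJA9 and CLDN22, whose probe sets name other genes as well, are not among them.

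All cells carried a retroviral hairpin RNA against GFP, which serves as a control because the cells have no such gene. After 24 h without serum, cells of one group received TGFβ, which acts through receptor kinases and SMAD proteins, and cells of the other received none. The labels state 5 µg/ml and 3 h, and since ng/ml is the usual unit for TGFβ the dose is in doubt. There were 4 Affymetrix arrays in each group, lettered A to D, and the series asks which genes TGFβ and mutant p53 control together. The p53-depleted cells are not analysed here. The labels call them biological replicates but do not say whether they came from separate cultures. The p-values therefore speak only of the spread among these arrays.

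Tight junctions seal the space between epithelial cells. Claudins form their strands and set which ions pass, occludin and tricellulin (MARVELD2) join the strands, and ZO proteins tie them to actin. Desmosomes hold cells together through the cadherins DSG and DSC, which plakoglobin, plakophilins and desmoplakin link to keratin filaments. Connexins form the channels of gap junctions. TGFβ is known for driving epithelial cells towards a mesenchymal state in which many of these junctions are lost, and MDA-MB-231 is a line that is already largely mesenchymal.

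Values are RMA signals on the log2 scale, 1 per probe set and array. Signals of different probe sets cannot be compared as amounts of RNA, so the rank of a signal among all genes is given only to show which members lie near background. The median signal of the 8 arrays lay between 4.62 and 4.66. SMAD7, a feedback inhibitor of TGFβ signalling, had a mean signal of 5.98 ± 0.41 untreated and 7.78 ± 0.34 treated (SD of log2 values, 4 arrays each; log2 fold change 1.81 ± 0.21 SE, limma adjusted p = 0.0039), so the treated arrays carried a TGFβ response. Of the markers of the line, VIM, MSN and CD44 had mean signals above those of 98.5% of genes or more (VIM 13.64). AXL lay at the 92.1st percentile (9.69) and varied between arrays, from 9.05 in treated D to 11.04 in treated A. CDH1 (4.53) and the epithelial splicing factor ESRP1 (3.39) lay at the 33.3rd and 16.9th percentile. EPCAM (8.36) and the keratins KRT8 (9.79), KRT18 (11.99) and KRT19 (11.44), which are epithelial, were bright all the same. Of the luminal markers, the hormone receptors ESR1 and PGR stood at 5.79 and 3.19, while GATA3 and ERBB2 were brighter at 7.45 and 7.15. The leukocyte, endothelial and hepatocyte markers PTPRC, CDH5 and ALB stood at 4.27, 3.25 and 2.57. PECAM1, another endothelial marker, was brighter at 7.37. It was lower after TGFβ in all 4 pairs without overlap, by a log2 fold change of -0.43 ± 0.12 SE (limma adjusted p = 0.207, 0.0155 with the block), and its part in the junction genes was not tested.

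Across the 52 junction genes the response to 3 h of TGFβ was small. None passed the limma test over all genes (Benjamini-Hochberg adjusted p of 0.05), where 0.576% of all genes did, and 4 had an unadjusted p under 0.05 (8.14% of all genes). The median log2 fold change of the members was 0.02, and that of all genes 0.01. The values ran from -0.41 for OCLN to 0.46 for CLDN4, 31 members were above 0 and 21 below, and 43 moved by less than 0.25. For 42 members the 95% interval of the fold change lay within 1.5-fold in either direction, and for 51 within 2-fold. The exception to the latter was CLDN1, whose interval ran from -1.01 to 0.46.

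Arrays with one letter deviated together. A paired fit, listed among the alternatives, took the letter as a replicate block. In that paired fit 3 of the 52 members passed, against 3.57% of all genes. CLDN4 was higher after TGFβ (1.39% of all genes were called higher), and OCLN and PKP2 were lower (2.18% called lower). These shares are read on few genes, and 49 members did not pass. The groups did not overlap in 4 members (5.12% of all genes), of which CLDN4, JAM3 and GJA4 were higher (2.9% of all genes) and PKP2 lower (2.21%). In 11 members all 4 letter pairs had the same sign (22.4% of all genes).

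**Figure D1:**
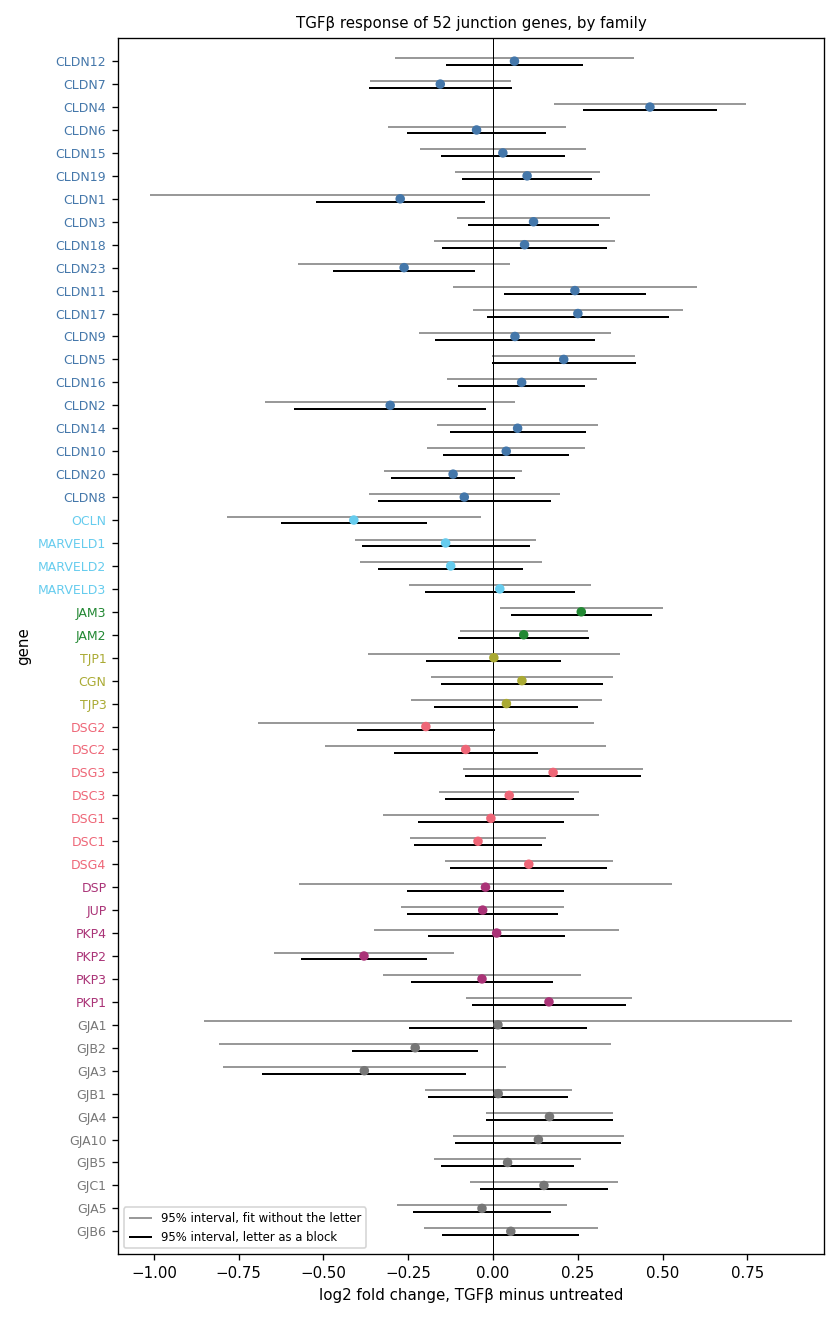
Log2 fold change (TGFβ minus untreated, n = 4 arrays in each group) of the 52 junction genes, with points coloured by family and ordered by mean signal within it. Grey bars are 95% intervals of the fit without the letter and black bars those with the letter as a block. Most points lie within 0.25 of 0, with CLDN4 farthest to the right at 0.46 and OCLN farthest to the left at -0.41.

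Among the 20 claudins, the strand proteins of the tight junction, 13 had a fold change above 0 and 7 below, with a median of 0.06. CLDN4 (Entrez Gene 1364), a claudin of many simple epithelia, moved most. Its signal was 7.63, 7.21, 7.30 and 7.48 in the untreated arrays A to D and 8.10, 7.67, 7.95 and 7.76 in the treated ones. Every treated array thus lay above every untreated one, though treated B exceeded untreated A only slightly. The means were 7.40 ± 0.19 and 7.87 ± 0.19 (SD, 4 arrays each), a 1.38-fold difference (log2 fold change 0.46 ± 0.13 SE, 95% interval 0.18 to 0.74) that did not pass without the letter (limma adjusted p = 0.209). All 4 letter pairs rose in value, by 0.46, 0.46, 0.65 and 0.28, and with the letter as a block the gene passed (adjusted p = 0.0184).

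CLDN4 did not pass in every block fit that left out a letter. In the block fit on 6 arrays it passed without letter A (adjusted p = 0.017) and without letter D (0.0383), but not without B (0.109) or C (0.0993), while the fold change stayed between 0.40 and 0.52. Its second probe set was dim, with a mean of 4.82 and a log2 fold change of 0.12 ± 0.10 SE.

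The RefSeq promoter of CLDN4 is shown because the gene passed with the letter as a block, as the only claudin on all 8 arrays. It holds the 250 bases before the gene's start at chr7:73830746-73830995 (GRCh38.p14, plus strand), and the capitals mark matches to letters searched on both strands. TGANTCA, the site of AP-1 factors, matched at 242 and 161 bases before the start, and CAGAC, the short SMAD element, at 233.
CLDN4: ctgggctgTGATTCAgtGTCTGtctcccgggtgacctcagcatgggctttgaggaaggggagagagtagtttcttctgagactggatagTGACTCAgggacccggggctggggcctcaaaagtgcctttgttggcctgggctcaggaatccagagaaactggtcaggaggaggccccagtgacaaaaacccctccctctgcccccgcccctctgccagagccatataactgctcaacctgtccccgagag

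Among all 35116 RefSeq promoters, TGANTCA stands in these 250 bases in 6.57% and CAGAC in 38%, so the latter match is common. The table had 55 promoters for 38 of the 52 members. Of these 5 (9.09%) held TGANTCA, at CLDN4, CLDN2, CLDN15, CLDN16 and GJA1, and 22 (40%) held CAGAC. A match is a description of the letters and does not show binding.

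No other claudin passed in a fit on all 8 arrays. CLDN5, the claudin of endothelial barriers, had 4.84, 4.56, 4.66 and 4.77 in untreated arrays and 4.91, 5.03, 4.89 and 4.84 in treated ones, all in the lower 40% of signals. Untreated A reached the level of treated D, and the log2 fold change was 0.21 ± 0.10 SE (limma adjusted p = 0.627, 0.336 with the block). CLDN23, a less studied claudin, had 5.32, 5.47, 5.75 and 5.42 untreated and 5.22, 4.95, 5.57 and 5.17 treated. It was lower in all 4 pairs, but the groups overlapped and the difference of -0.26 ± 0.14 SE did not pass (limma adjusted p = 0.727, 0.198 with the block).

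CLDN12 and CLDN7, with mean signals of 9.02 and 7.84, had log2 fold changes of 0.06 (95% interval -0.29 to 0.42) and -0.16 (-0.36 to 0.05). CLDN3, which lies beside CLDN4 on the chromosome, had 0.12 (95% interval -0.11 to 0.34), at a mean signal of 5.70. CLDN2, which forms a cation pore, and CLDN17 had -0.30 and 0.25 at mean signals of 4.43 and 4.88. In the block fit without letter A, CLDN17 passed with a value above 0. It read 4.81, 4.77, 4.81 and 4.62 untreated and 4.60, 5.31, 5.01 and 5.09 treated, so that treated A was its lowest array and the other treated arrays lay above all untreated ones. CLDN1, which is needed for the barrier of the skin, varied with the letter and is described with the other such genes. Of the remaining claudins of the upper 60% of signals, CLDN6 and CLDN15 had -0.05 and 0.03, and CLDN19 and CLDN18 0.10 and 0.09. CLDN11, the claudin of myelin and of the testis, had 0.24 at a mean signal of 5.17 and was higher in all 4 pairs, without passing in either fit. The dim claudins CLDN8, CLDN9, CLDN10, CLDN14, CLDN16 and CLDN20 ran from -0.12 to 0.08.

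OCLN (100506658), which encodes occludin, the MARVEL protein of the strand, gave the lowest value among the members. Its signal was 9.03, 9.05, 8.74 and 8.75 in the untreated arrays A to D and 8.87, 8.70, 8.10 and 8.26 in the treated ones. Each treated array lay under the untreated array of its letter, but treated A stood above untreated C and D. The means were 8.89 ± 0.17 and 8.48 ± 0.36 (SD, 4 arrays each; difference on the log2 scale -0.41 ± 0.17 SE, 95% interval -0.79 to -0.04), and the difference did not pass without the letter (limma adjusted p = 0.535). The pair differences were -0.16, -0.35, -0.64 and -0.49, and with the block the adjusted p was 0.0472, close to the threshold.

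All 4 probe sets of OCLN went the same way. The other 3 had log2 fold changes of -0.46 ± 0.15 SE, -0.46 ± 0.15 SE and -0.13 ± 0.16 SE, at mean signals of 6.50, 5.58 and 4.12. Over the 54613 probe sets, the 2 of middle brightness passed with the block (limma adjusted p = 0.0337 and 0.0442) and the brightest did not (0.0943). Without letter A the gene passed in the block fit (adjusted p = 0.01), and without B, C or D it did not (0.168, 0.197 and 0.206), with a fold change of -0.33 to -0.49.

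The promoter of OCLN is shown because this gene, like CLDN4, passed with the letter as a block. PKP2 passed as well but had no entry among the RefSeq promoters used. The 250 bases lie before the upstream one of its RefSeq starts, at chr5:69492297-69492546 (GRCh38.p14, plus strand). They hold CAGAC at 243 bases before the start and, at 33, CACCTG read on the other strand, the E-box that SNAI and ZEB repressors bind, and no TGANTCA.
OCLN: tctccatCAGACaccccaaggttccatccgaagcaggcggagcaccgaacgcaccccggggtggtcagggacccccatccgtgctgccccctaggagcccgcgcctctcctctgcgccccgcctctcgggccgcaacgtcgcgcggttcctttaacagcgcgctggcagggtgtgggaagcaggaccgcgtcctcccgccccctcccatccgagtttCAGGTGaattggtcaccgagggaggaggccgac

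CACCTG stands in 17.5% of all promoters and in 13 of the 55 promoters of members (23.6%). The arrays do not show whether a factor binds the match at OCLN.

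**Figure D2:**
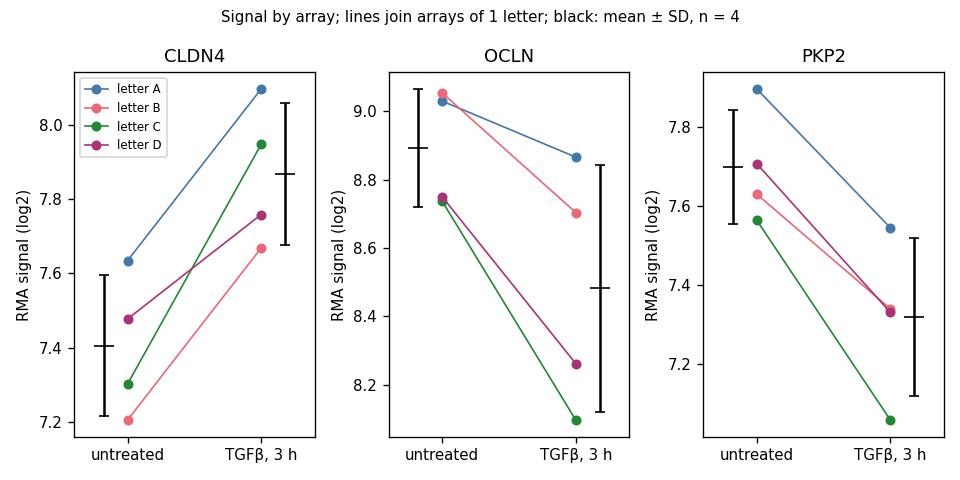
RMA signal (log2) of CLDN4, OCLN and PKP2 in each array, untreated and after 3 h of TGFβ, with lines that join arrays of 1 letter and black marks for the mean ± SD (n = 4). All 4 lines go up for CLDN4 and down for OCLN and PKP2, and for OCLN letters A and B lie above C and D in both groups.

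The other MARVEL proteins had values near 0. MARVELD1 had a log2 fold change of -0.14 (95% interval -0.41 to 0.13), MARVELD2, the tricellulin of 3-cell corners and the neighbour of OCLN on the chromosome, -0.12 (-0.39 to 0.14) and MARVELD3 0.02 (-0.25 to 0.29).

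The junctional adhesion molecules, immunoglobulin proteins of the tight junction, were dim. JAM3 had 4.07, 4.12, 3.80 and 3.72 in untreated arrays and 4.26, 4.15, 4.18 and 4.15 in treated ones, so the groups did not overlap. The difference was 0.26 ± 0.11 SE (log2, limma adjusted p = 0.544, 0.2 with the block), and its other 2 probe sets had 0.20 and 0.12. JAM2 lay at 3.56 with a log2 fold change of 0.09. Both genes were in the lower 40% of signals, where RMA understates changes and where 65.1% of all genes had a fold change above 0, against 18 of the 24 dim members.

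In the plaque under the tight junction, TJP1 (7082), which encodes ZO-1 and ties the strands to actin, was bright and had no net shift. Its signal was 9.69, 9.81, 9.41 and 9.38 in the untreated arrays A to D and 9.72, 9.96, 9.20 and 9.41 in the treated ones. The groups overlapped fully, with a log2 fold change of 0.00 ± 0.17 SE (95% interval -0.37 to 0.37, and -0.20 to 0.20 with the block). Its second probe set had -0.25 ± 0.25 SE. TJP3, another ZO protein, and cingulin (CGN), a plaque protein that binds myosin, had 0.04 and 0.09 at mean signals of 4.70 and 5.11.

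Of the 7 desmosomal cadherins, which lie side by side on 1 chromosome, DSG2 and DSC2 were bright and the other 5 dim. DSG2 (1829) and DSC2 (1824), the pair of simple epithelia, had mean signals of 9.91 and 7.83. DSG1, DSG3, DSG4, DSC1 and DSC3, which are typical of stratified epithelium, had 2.26 to 3.66, and all 5 were among the lower 40% of signals. After TGFβ the log2 fold change of DSG2 was -0.20 (95% interval -0.69 to 0.30) and that of DSC2 -0.08 (-0.50 to 0.33). None of the 7 passed in either fit.

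PKP2 (5318), a plakophilin that links desmosomal cadherins to desmoplakin, was the member of the desmosomal plaque that differed. Its signal was 7.90, 7.63, 7.56 and 7.71 in the untreated arrays A to D and 7.55, 7.34, 7.06 and 7.33 in the treated ones. All treated arrays lay under all untreated ones, with 0.02 between untreated C and treated A. The means were 7.70 ± 0.14 and 7.32 ± 0.20 (SD, 4 arrays each; difference on the log2 scale -0.38 ± 0.12 SE, 95% interval -0.65 to -0.11; limma adjusted p = 0.314, and 0.0339 with the block). The pair differences ran from -0.51 to -0.29.

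PKP2 was also sensitive to the setting. In the block fit it passed without letter A (adjusted p = 0.0318) but not without B, C or D (0.123, 0.146 and 0.149). Over all probe sets with the block it did not pass (0.0704). Its second probe set, at a mean signal of 4.75, had -0.26 ± 0.25 SE. Treated A read 3.80 there, where the other treated arrays read 4.75 to 4.98 and the untreated ones 4.69 to 5.25.

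The rest of the desmosomal plaque did not follow PKP2. JUP, which encodes plakoglobin, had a log2 fold change of -0.03 (95% interval -0.27 to 0.21) at a mean signal of 8.23, PKP3 -0.03 (-0.32 to 0.26) and PKP1 0.17 (-0.08 to 0.41). DSP and PKP4 had -0.02 and 0.01 and varied with the letter. Of 6 plaque genes 1 thus passed with the block and none without it.

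Among the 10 connexins 7 had a fold change above 0 and 3 below, and none passed in either fit. GJA3, known as a connexin of the lens, had 5.81, 6.49, 6.08 and 6.22 in untreated arrays and 5.97, 6.18, 5.46 and 5.47 in treated ones. It was lower in pairs B, C and D and higher in A, with a mean difference of -0.38 ± 0.19 SE (log2, limma adjusted p = 0.685, 0.196 with the block). In the block fit without letter A it passed (-0.56, adjusted p = 0.00685), and its second, dimmer probe set had 0.03 ± 0.08 SE.

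GJA4, a connexin of vessel walls, had 5.34, 5.31, 5.39 and 5.22 untreated and 5.54, 5.41, 5.45 and 5.52 treated. The groups did not overlap, yet the difference was only 0.17 ± 0.08 SE (log2, limma adjusted p = 0.7, 0.399 with the block). GJB2, the connexin whose loss causes deafness, was lower in all 4 pairs by 0.16 to 0.36, with a log2 fold change of -0.23 (95% interval -0.81 to 0.35; with the block -0.42 to -0.04, adjusted p = 0.206). GJA1, which encodes connexin 43, the widespread gap junction protein, had 0.01 with an interval from -0.85 to 0.88, the widest among the connexins. With the letter as a block that interval was -0.25 to 0.28. GJB1, the connexin of liver and Schwann cells, had 0.02 at a mean signal of 5.68, and the dim GJA5, GJA10, GJB5, GJB6 and GJC1 ran from -0.03 to 0.15.

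**Figure D3:**
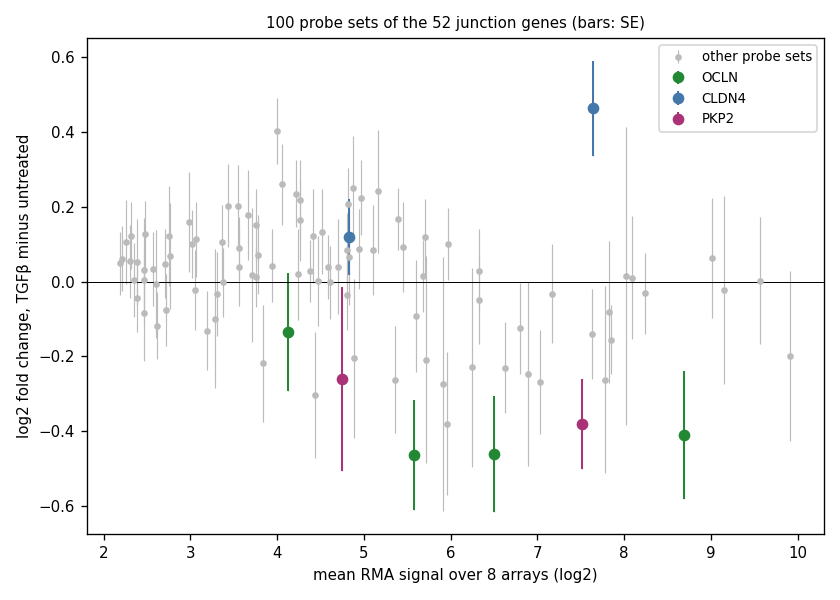
Log2 fold change (TGFβ minus untreated; bars are SE) against mean RMA signal over 8 arrays for the 100 probe sets of the 52 junction genes. The 4 probe sets of OCLN lie at -0.13 to -0.46, the brighter one of CLDN4 at 0.46 and the brighter one of PKP2 at -0.38, and most others lie near 0.

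Probe sets were compared where a gene had several. The members had 100 probe sets in all, none of which passed without the letter (0.256% of all probe sets) and 3 with it (1.75%), 1 of CLDN4 and 2 of OCLN. For 31 members with more than 1 probe set, all agreed in sign in 22. In the other 9, CLDN15, CLDN23, GJA3, GJA5, GJC1, MARVELD1, PKP4, TJP1 and TJP3, at least 1 probe set had the other sign.

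The replicate letter separated some junction genes far more than TGFβ did. A span over the letter means is not the same measure as a difference between group means, however. The median span was 0.29 in members and 0.29 in all genes. In the upper 60% of signals it was 0.43 in members and 0.35 in all genes. In an F test of the letters, with treatment in the same limma fit, 8 of the 52 members passed, against 10.2% of all genes. Among members in the upper 60% of signals these were 8 of 28, where 15.4% of all genes as bright passed. They were DSG2, DSC2, DSP, TJP1 and GJB2, highest in letter B, and GJA1, CLDN1 and PKP4, highest in letter A. The labels do not say what a letter stands for.

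GJA1 and CLDN1 had the widest gaps between letters. GJA1 read 8.91, 7.54, 7.76 and 7.87 in the untreated arrays A to D and 9.24, 7.77, 7.42 and 7.70 in the treated ones, a span of 1.48 between the letter means (limma F test, adjusted p = 0.00261). Both A arrays stood above all 6 others by more than 1 log2 unit. CLDN1 read 6.96, 5.29, 5.84 and 6.10 untreated and 6.52, 5.45, 5.46 and 5.66 treated, with a span of 1.37 (adjusted p = 0.0038), and its second probe set was also highest in A.

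PKP4, a plakophilin relative at adherens junctions and desmosomes, read 8.32, 7.83, 8.07 and 8.12 untreated and 8.57, 7.81, 8.02 and 7.99 treated. Its span was 0.62, and its call lay at the threshold (limma F test, adjusted p = 0.0493). It was lost when arrays were centred on their medians, when probe sets were averaged, without _x_at and _s_at probe sets and with the probe set of largest variance.

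Arrays also differed in a measure related to RNA quality, in which treated A stood far from the rest and untreated A only slightly. The 3-prime minus 5-prime signal of the ACTB control probe sets was 0.89 in untreated A and 1.68 in treated A, against 0.63 to 0.79 in the other 6 arrays, and that of GAPDH was 0.14 and 0.54 against 0.06 to 0.10. The part of this measure in the A values of GJA1, CLDN1 and PKP4 was not tested. Nor was its part in the TGFβ differences, where treated A is among the treated arrays.

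DSG2, DSP and DSC2 were highest in letter B and lowest in C. The other desmosomal genes of the upper 60% of signals did not follow, as PKP2 and PKP4 were highest in A and JUP and PKP3 in C. DSG2 read 10.13, 10.43, 9.69 and 9.81 in untreated arrays A to D and 10.16, 10.24, 9.33 and 9.54 in treated ones (span between letter means 0.82; limma F test, adjusted p = 0.00966). DSP, which encodes desmoplakin, the link to keratin filaments, read 9.20, 9.60, 8.81 and 9.06 and then 9.44, 9.74, 8.62 and 8.78 (span 0.96, adjusted p = 0.0116). DSC2 read 7.86, 8.21, 7.63 and 7.78 and then 7.99, 8.23, 7.46 and 7.48 (span 0.67, adjusted p = 0.0313).

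In the probe sets used for DSG2, DSP, DSC2 and TJP1, all arrays of letters A and B lay above those of C and D. By letter mean B was highest and C lowest. For TJP1 the span was 0.58 (limma F test, adjusted p = 0.039). DSP was higher after TGFβ in A and B, by 0.23 and 0.14, and lower in C and D, by 0.18 and 0.28. DSC2 had the same signs, and DSG2 differed by 0.03, -0.19, -0.35 and -0.28. DSG2 lost its letter call with the mean of probe sets and with the probe set of largest variance. Over all probe sets, those that stand for TJP1, DSC2 and PKP4 missed the threshold (limma F test, adjusted p = 0.0768, 0.0647 and 0.0943). In the second, dimmer probe set of DSG2 the letters did not pass (adjusted p = 0.523 over all probe sets), while in that of TJP1 they did (0.0195). The second probe set of DSC2 passed too (0.0129). In each of these second probe sets B was highest, but D lay above A by letter mean. Letters A and B thus did not both stand above C and D there. Over all probe sets of the members, 8 of 100 differed between letters, against 4.23% of all probe sets.

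GJB2 stood apart in letter B. It read 6.08, 7.05, 6.14 and 6.17 untreated and 5.72, 6.82, 5.97 and 6.01 treated, so both B arrays lay well above the other 6 (span 1.03; limma F test, adjusted p = 0.00321). Its chromosomal neighbours GJB6 and GJA3 did not pass, with spans of 0.32 and 0.56.

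The calls depended on which letters were present. Without letter B only GJA1 and CLDN1 passed, 2 of the 52 members beside 1.69% of all genes. Without letter A 7 members passed beside 9.25% of all genes, with GJA1, CLDN1 and PKP4 no longer among them. Without A, GJA3 and CLDN12 passed in addition to 5 of the 8. Without C 6 members passed beside 9.06% of all genes, with DSC2 and TJP1 lost. Without D 8 passed beside 10.5% of all genes, with TJP1 lost and CLDN11 gained. OCLN, CLDN12 and CLDN11 lay just outside the threshold, with adjusted p of 0.0551, 0.0542 and 0.0578 in the limma F test.

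**Figure D4:**
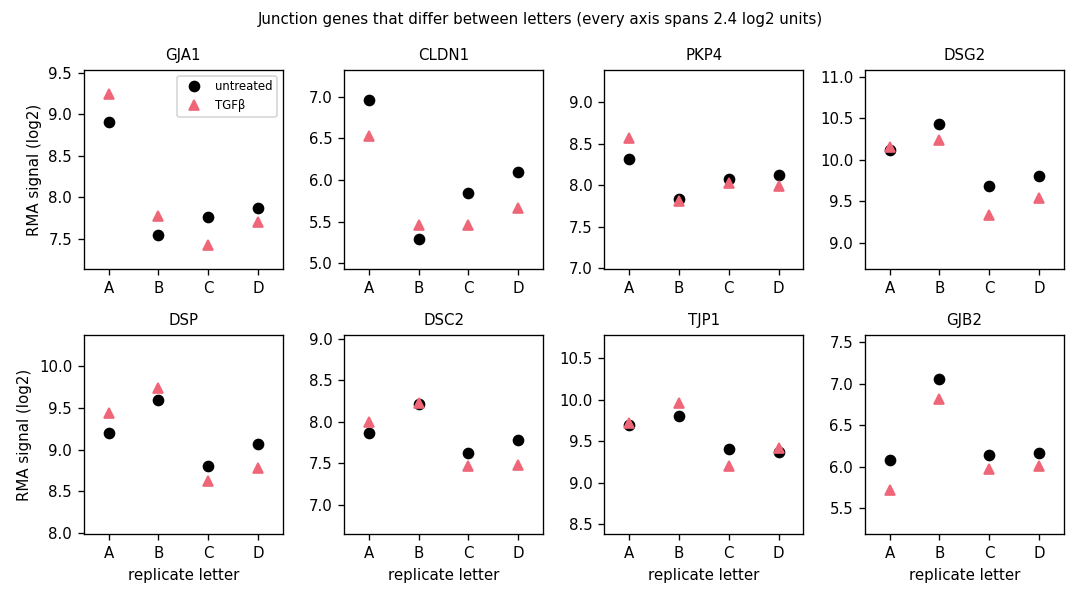
RMA signal (log2) by replicate letter for the 8 junction genes that differ between letters, untreated arrays as black circles and TGFβ arrays as red triangles, on axes of equal span. GJA1, CLDN1 and PKP4 are highest in letter A, GJB2 in letter B, and in DSG2, DSP, DSC2 and TJP1 letters A and B lie above C and D.

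**Figure D5:**
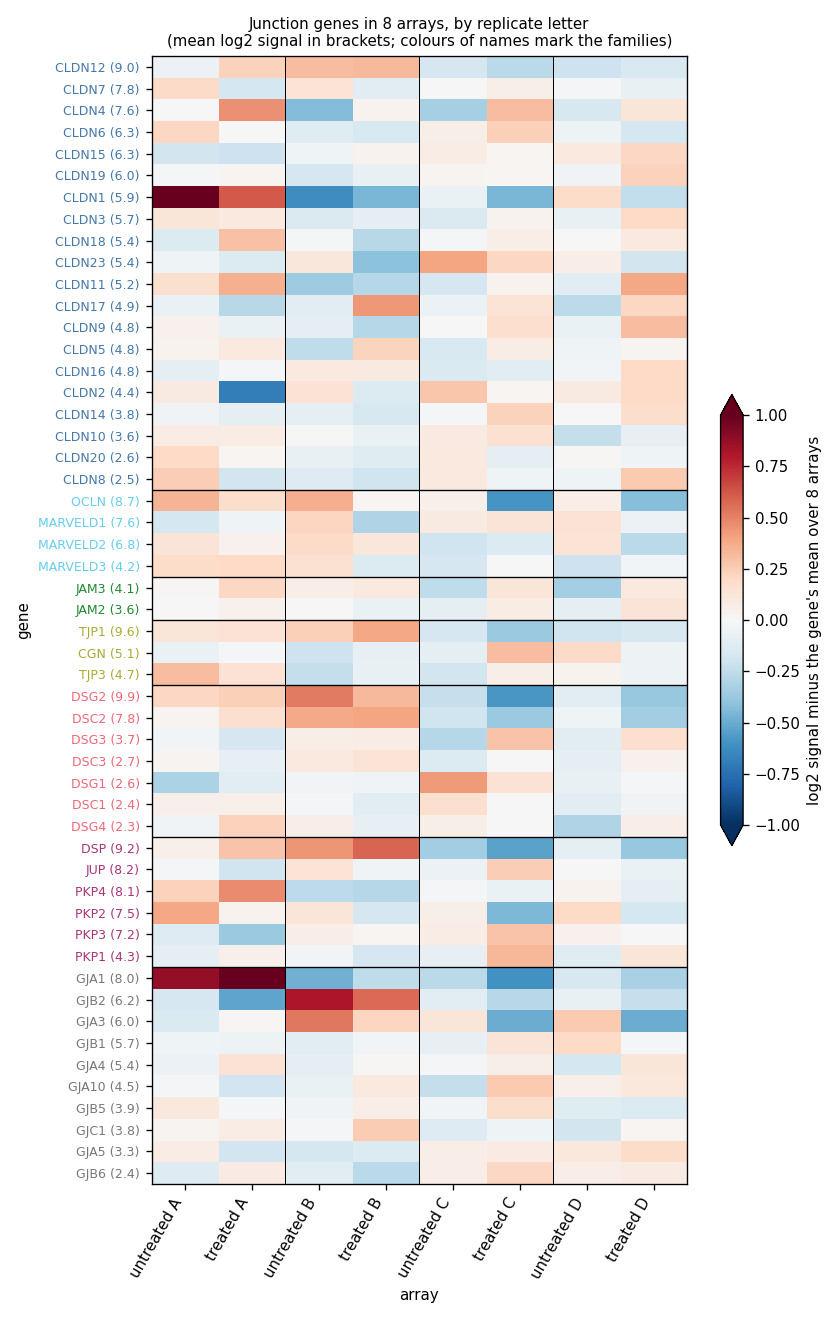
Log2 signal of each junction gene minus its own mean over 8 arrays, by array, with families separated by lines and mean signals in brackets. The strongest colours follow the letters, as in GJA1 and CLDN1 in both A arrays and GJB2 in both B arrays, and few rows change between the untreated and treated array of a letter.

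Other proteins of the same junctions were read from a list of 41 symbols, of which 36 were measured. In the fit without the letter 1 rose, none fell and 35 did not pass, where 0.576% of all genes passed. With the block 2 rose and 1 fell, where 1.39% of all genes were called higher and 2.18% lower. CDH1, the E-cadherin of adherens junctions, rose from 4.19, 3.93, 4.05 and 4.14 to 5.22, 4.98, 4.92 and 4.78, with no overlap between groups. Its log2 fold change was 0.90 ± 0.11 SE (limma adjusted p = 0.00579, 0.000501 with the block), and it passed whichever array was left out. The gene stayed dim, and its second probe set, at a mean of 3.04, had 0.07 ± 0.17 SE. With the mean of both probe sets the difference was 0.48 and did not pass (adjusted p = 0.149).

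CXADR, an adhesion protein of the tight junction that also serves viruses as a receptor, passed with the block. It read 7.36, 6.96, 7.38 and 7.41 untreated and 7.18, 6.22, 6.19 and 6.16 treated, and only treated A overlapped the untreated arrays (log2 fold change -0.84 ± 0.22 SE, limma adjusted p = 0.172, 0.0154 with the block). Without treated A it passed in the fit without the letter too (-1.09, adjusted p = 0.00331), and with the block it passed without letter A (6.5e-05) but not without B, C or D (0.0792, 0.114 and 0.062). Its other 3 probe sets were also lower. ARHGEF18 read 10.81, 10.79, 10.75 and 10.88 untreated and 11.09, 11.22, 11.43 and 11.32 treated, without overlap. It had 0.46 ± 0.10 SE (limma adjusted p = 0.0811, 0.0227 with the block). In the block fit it passed without letter A (0.00714) but not without B, C or D (0.115, 0.112 and 0.0925). Over all probe sets with the block ARHGEF18 did not pass (limma adjusted p = 0.0529). The median of the 36 genes was 0.06.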

How the data were processed

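The authors deposited 1 log2 value per probe set and array, made with RMA per the submitters' processing notes. RMA corrects background, normalizes between arrays and summarises probes. The RMA version and the set of arrays normalized as one were not given in the sources used here. The base of log2 was inferred from RMA and the range of values. RMA gives no detection calls.

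Of 54675 probe sets 62 are controls. Through GEO's platform annotation of 2016, 41091 of the 54613 others name 1 gene, 1801 several and 11721 none. All 52 members matched RefSeq by Entrez identifier. The members and lists were chosen with earlier results of these data known.

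TGFβ was tested with limma 3.58.1 under R 4.3.3 (lmFit, eBayes, two-sided, Benjamini-Hochberg over all 19775 genes or all probe sets, threshold 0.05). Every member was named; values per array are given for members that passed on all 8 arrays in a fit or the letter test, the 8 with the smallest p and the 3 brightest. Across genes, the deviations from group means of 2 arrays sharing a letter correlated at 0.49 (A), 0.69 (B), 0.34 (C) and 0.30 (D). This pairing rests on the data, as the labels do not state it, and the fit with a replicate block is given where it changes a call. Alternatives were the block, the upper 60% of signals, centring, a further quantile normalization, a robust trended prior, other rules for a gene's probe set and each array left out. The block fit without each letter was added after seeing the data. Fits were tested on simulated data. With letter effects simulated, the share of false calls in the block fit was above its threshold. Without the block no false call was made, but fewer of the simulated 1.5-fold changes were recovered. Promoters came from RefSeq (GRCh38.p14). Python 3.11.15 and matplotlib 3.10.9 made the plots.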

Additional observations from a re-analysis of the deposited data

Results flagged for a closer look

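In 5 of the 104 groups of 4 arrays (52 members in 2 groups), or 4.81%, 1 array stood apart from the other 3, where chance gives about 5%. The gap to the nearest other array as a share of the group's range was 0.905 for GJB2 in untreated B (7.05 against 6.08 to 6.17), which treated B repeats in its own group with 6.82. It was 0.867 for CLDN18 in untreated A (5.31 against 5.42 to 5.44), 0.865 for GJA5 in untreated B (3.12 against 3.37 to 3.40), 0.855 for PKP3 in untreated A (7.04 against 7.21 to 7.24) and 0.839 for MARVELD2 in untreated C (6.60 against 6.93 to 6.99), in each case the lowest array.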

How the results depend on the processing

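With the replicate block 705 genes passed in place of 114, 3 junction genes in place of 0, 3 probe sets of junction genes in place of 0, and 3 partner genes in place of 1. With 1 array left out, 46 to 232 genes passed, with 49, 53, 59 and 46 without untreated C, untreated D, treated C and treated D and 232 without treated A. In these fits 0 junction genes and 0 of their probe sets passed, 1 to 3 partner genes did (3 without treated A), and the median of junction genes was 0.01 to 0.06. In the paired fit 5, 0, 0 and 1 junction genes passed without letter A, B, C and D. No share of all genes is given for these TGFβ counts, so they have no background to be set beside. Without B 2 junction genes differed between letters, beside 1.69% of all genes. With only the upper 60% of signals the median of junction genes was -0.026 and 0 partner genes passed; CDH1 is too dim to remain. No partner gene passed with the mean of probe sets (0) or without _x_at and _s_at probe sets (0), where CDH1 has no probe set left. No other setting from the list of alternatives made a junction gene pass. Precision is limited by how few arrays there are, and signals near background understate changes.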
